A study of Mus musculus with 12 samples.

Results

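Peroxisomes are small organelles that shorten very long-chain, branched and dicarboxylic fatty acids and break down the hydrogen peroxide that this produces. Their matrix enzymes are made in the cytosol and imported by a machinery of peroxins, encoded by the Pex genes. Many peroxisomal enzyme genes are known targets of PPAR-alpha, a nuclear receptor that binds DNA with a retinoid X receptor (RXR) as its partner, best described in liver. The 31 genes described here were chosen by name, with earlier results of these data known. They are 18 genes of peroxisomal enzymes and transporters, and 13 Pex genes of import, membrane assembly and division, out of 21883 protein-coding genes placed on the chromosomes.

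H3K27ac, the histone acetylation typical of promoters and enhancers in use, had been mapped by ChIP-seq, in mice, in whole hearts on the day of birth (P0, postnatal day 0). The WT group is 3 wild-type hearts (numbers 1, 3 and 4), and the edKO group is 3 hearts (numbers 1, 3 and 6) labelled RXRab-/- in cardiomyocytes only, that is, without the RXR genes Rxra and Rxrb in those cells. What drives the deletion, and the strain and sex of the mice, is not given in the sources used here. Each heart is from 1 newborn, was fixed with DSG and FA, and has a peak list of its own. In a whole heart the other cell types keep both RXR genes, and fewer marked cells and less mark per cell cannot be told apart. The value compared is the called length, the base pairs covered by called peaks over a gene body and 10 kb on each side. A region missing from a list was not called, which is not the same as unmarked.

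The WT lists held 57976 to 66325 distinct regions and the edKO lists 47971 to 67706, over 59.1 to 68.3 Mb in WT and 47.9 to 66.6 Mb in edKO. The edKO 3 list covered the least, so values were centred per heart before testing. Read depth per heart is unknown, since the labels give an average over samples alone. The heart label was checked on 5 cardiomyocyte markers, all called, with a summed length of 121898 to 126315 bp across WT hearts and 83987 to 122829 bp across edKO hearts. Among markers of other tissues rich in peroxisomes, 2 of 5 hepatocyte genes (Alb and Serpina1a) had no called length in any heart, while the whole hepatocyte list summed to 2967 to 4823 bp in WT and 2928 to 4605 bp in edKO. Of the 4 adipocyte genes, Ucp1 alone had none. No tested marker of the 8 cell type lists passed the limma test between genotypes. The summed length of the 4 adipocyte markers was 8140 to 8989 bp in WT and 6206 to 7771 bp in edKO, without overlap. All these sums are uncentred, and after centring the median log2 difference of the 3 tested adipocyte markers was 0.01. The part of adipocytes in the results was not tested. The Rxra and Rxrb loci were called too (log2 differences of -0.06 and 0.00), but a mark in whole hearts does not check the deletion.

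Start sites of the peroxisome genes were nearly always marked, and the exceptions held few CpG dinucleotides. Of the 26 members with a promoter sequence in the RefSeq table (GRCm38.p6, the build of mm10), 24 had a called region at a start site in all 6 hearts. Over all 17491 protein-coding genes with such a sequence, 50.8% did. The 2 members with no call at the start in any heart were Acox2, the oxidase of bile acid intermediates and branched chains, and Acaa1b, a copy of the peroxisomal thiolase gene. Among the 24 marked members, the window from 250 bases before to 50 after the start held 7 to 45 CpG dinucleotides (median 16.5), and Acox2 and Acaa1b held 4 each. Medians over all genes were 22 CpG for starts called in all 6 hearts and 3 for starts called in none. The 250 bases before the start are shown for the member richest in CpG (Abcd3), for Ehhadh, a textbook PPAR-alpha target in liver, and for both unmarked members. Capitals mark each CpG, and all 4 genes lie on the minus strand.

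Abcd3 (chr3:121815303-121815552, 34 CpG): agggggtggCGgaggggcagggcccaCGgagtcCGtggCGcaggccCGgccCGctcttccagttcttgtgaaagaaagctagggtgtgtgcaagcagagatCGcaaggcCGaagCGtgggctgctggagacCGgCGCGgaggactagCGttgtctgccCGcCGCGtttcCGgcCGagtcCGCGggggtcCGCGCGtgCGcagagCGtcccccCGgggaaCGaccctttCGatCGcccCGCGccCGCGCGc
Ehhadh (chr16:21787835-21788084, 12 CpG): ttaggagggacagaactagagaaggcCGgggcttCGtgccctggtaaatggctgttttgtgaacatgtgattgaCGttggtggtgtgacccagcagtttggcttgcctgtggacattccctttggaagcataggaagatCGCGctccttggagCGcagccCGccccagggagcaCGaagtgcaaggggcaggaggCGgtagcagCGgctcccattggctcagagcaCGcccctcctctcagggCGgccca
Acox2 (chr14:8259020-8259269, 3 CpG): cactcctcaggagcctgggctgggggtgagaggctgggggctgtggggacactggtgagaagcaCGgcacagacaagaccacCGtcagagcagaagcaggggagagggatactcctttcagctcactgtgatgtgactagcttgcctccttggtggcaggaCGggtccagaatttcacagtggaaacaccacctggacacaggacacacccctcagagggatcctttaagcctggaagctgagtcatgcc
Acaa1b (chr9:119157094-119157343, 2 CpG): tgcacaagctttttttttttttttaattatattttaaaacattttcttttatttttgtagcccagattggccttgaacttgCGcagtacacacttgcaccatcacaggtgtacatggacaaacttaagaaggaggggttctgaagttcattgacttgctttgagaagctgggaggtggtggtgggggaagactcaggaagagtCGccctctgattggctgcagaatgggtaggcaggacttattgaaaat

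Nuclear receptor motifs were searched in the same windows. The direct repeat of AGGTCA with 1 spacer base, to which PPAR and RXR bind as a pair, was searched on both strands with up to 2 mismatches. It was found at 1 of 26 members (3.85%), the catalase gene Cat, against 3.34% of all promoters. The single motif AGGTCA, which the repeat also contains, was found without mismatch at 4 of 26 (15.4%), against 14.4% of all promoters. The Cat match starts 204 bases before the start site on the gene's own strand and is shown in capitals. A match describes letters only, and sites farther from the start lie outside this window.

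Cat (chr2:103485154-103485403, minus strand): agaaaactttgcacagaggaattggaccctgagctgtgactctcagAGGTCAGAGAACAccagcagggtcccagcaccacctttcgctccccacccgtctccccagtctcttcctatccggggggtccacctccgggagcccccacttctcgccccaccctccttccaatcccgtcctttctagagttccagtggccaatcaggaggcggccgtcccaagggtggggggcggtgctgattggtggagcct

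The number of called regions varied widely among the members. Of the 29 tested, 11 (37.9%) had exactly 1 called region in every heart, against 13.1% of all 14313 loci tested. They were Pex2, Pex7, Pex10, Pex11a, Pex11g, Pex13, Abcd3, Amacr, Hacl1, Crot and Phyh. The other 18 did not, with 11 to 18 regions per heart at Pex14 and 4 to 8 at Acot8. At 7 of the 24 members with a marked start (29.2%, against 19% of all genes with a start called in all 6 hearts), the region also covered the start of a neighbouring gene. These pairs were Pex3 with Adat2, Pex11a with Wdr93, Pex13 with Pus10, Acaa1a with Myd88, Hacl1 with Btd, Acot8 with Zswim3, and Pecr with Tmem169, so a length there is not that of the member alone. In all, 87 distinct regions lay in the windows of the members, of which 61 touched the member's own gene and 24 had another gene as the nearest.

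Levels are compared between genes per length of window. The mean share of the window covered by peaks ran from 1.33% at Pex7, the receptor for the second kind of peroxisomal import signal, to 14.5% at Acot8, a peroxisomal acyl-CoA thioesterase. The median was 4.51% over the 16 tested enzymes and transporters and 5.68% over the 13 Pex genes, against 6.27% over all loci. Windows differed too, with medians of 49.3 kb for the enzymes and transporters and 35.6 kb for the Pex genes. Their median called lengths were 2027 and 2124 bp. Below Acot8 came Pex26 at 12.1%, Acaa1a at 11.9% and Ech1 at 10.1%. At Acot8 most of the length belonged to regions at or next to Snx21, Zswim3 and Zswim1. At Pex26 regions outside the gene, some at or nearer to Mical3, held 1792 to 3813 bp per heart, against 1088 to 1598 bp at its start. The Acaa1a start region, of 2621 to 2936 bp per heart, is the one shared with Myd88. The order of these 4 members is not resolved, since their values in single hearts overlapped. They were 12.0 to 16.4% at Acot8, 8.09 to 15.2% at Pex26, 9.85 to 13.7% at Acaa1a and 6.79 to 12.9% at Ech1. Pex7, Scp2 (1.7%), Abcd2 (2.15%), Hsd17b4 (2.44%) and Abcd3 (2.6%) had the smallest shares. Their windows were wide, from 66.1 kb at Abcd2 to 121 kb at Scp2, against a median of 39.7 kb over the tested members. At Pex7 the called length was short as well, from 717 to 1249 bp per heart. Abcd2 ranged from 1252 to 1817 bp, while the tested members had a median of 2064 bp. Single hearts of Scp2, Hsd17b4 and Abcd3 lay on both sides of that median. For those genes a small share does not mean a short called length.

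**Figure D1:**
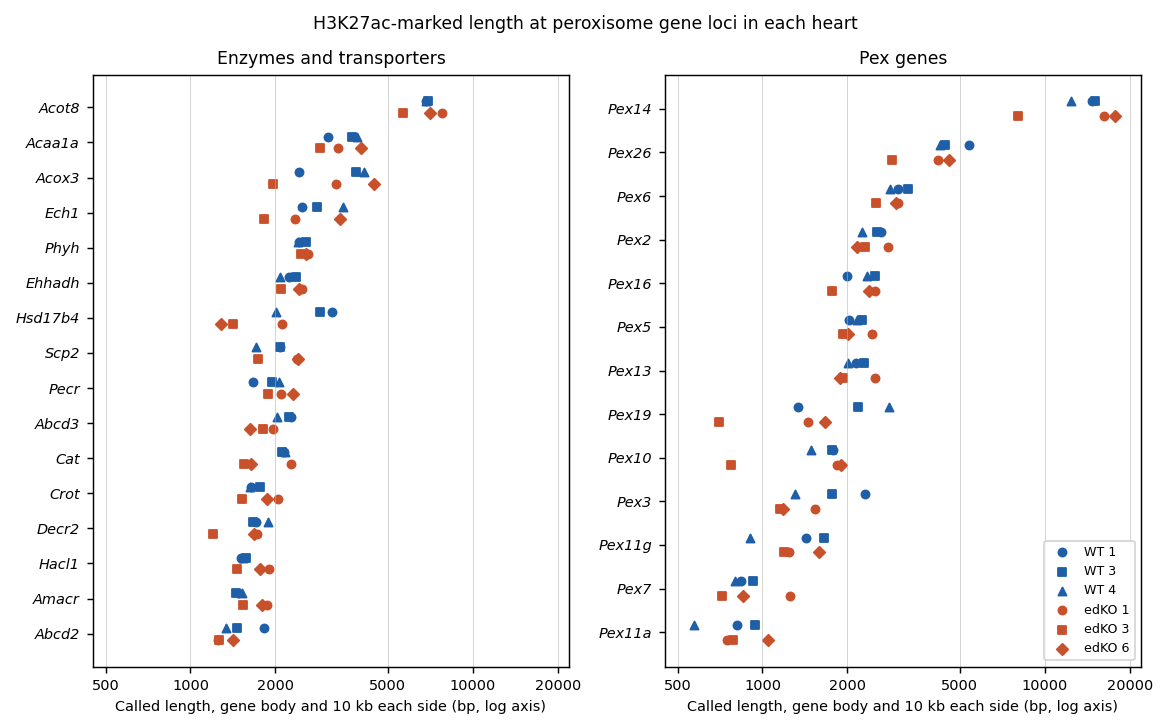
Called H3K27ac length (bp, log axis) at the 29 tested loci, each point 1 heart, blue WT and orange edKO, with enzymes and transporters on the left and Pex genes on the right. Pex14 reached 8056 to 17803 bp and Pex11a 574 to 1047 bp, and the genotypes overlap at nearly every gene, with Abcd3 lower and Amacr higher in all edKO hearts.

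The fold enrichment of each peak, the authors' own value, ranks the peaks of a list. At each member the strongest entry was placed among all entries of the same heart. Over the 6 hearts, the median of these percentiles was 88.4 to 94.7 for the enzymes and transporters and 88.8 to 95.4 for the Pex genes. The strongest entry of a wide window is high by construction, and the median over all tested loci was 89.7 to 93.4, within a few percentiles of both groups. In WT hearts the enzyme medians (93.0, 94.7 and 93.5) were above those of all loci (91.7, 92.9 and 93.0). In edKO hearts they (88.4, 88.7 and 92.7) were below them (90.2, 89.7 and 93.4). The Pex median was below that of all loci in edKO 1 alone. These differences were not tested. Phyh, the hydroxylase that starts alpha-oxidation of phytanic acid, stood at 96.2 to 98.4, and Pex2, a RING ligase subunit of the import receptor cycle, at 95.7 to 99.4. Abcd2, a transporter of very long-chain acyl-CoA, ran from 47.3 to 67.8. Pex11a, a division factor, ran from 12.2 in edKO 1 to 72.0 in WT 4. Ranks in lists of different length cannot show whether the mark changed between hearts. Acox2, called in WT 1 and edKO 6 alone, had its 1 weak region, at Kctd6 and 6193 bp from Acox2, at the 16.3 and 27.8 percentiles.

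**Figure D2:**
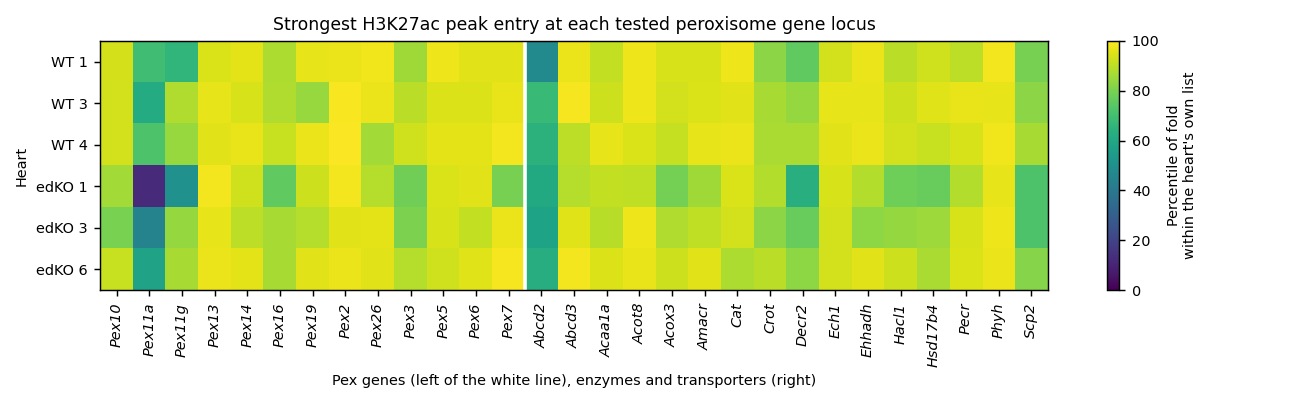
Percentile of the strongest peak entry's fold within each heart's own list (colour, 0 to 100) for 13 Pex genes and 16 enzymes and transporters, with 1 row per heart. Group medians lie between 88.4 and 95.4, close to those of all loci, and Pex11a and Abcd2 have low values.

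Between genotypes, no tested member passed, neither an enzyme gene nor a Pex gene, and in neither direction. With limma on log2(called length + 200 bp), 0 of 29 tested members were lower or higher in edKO at the adjusted threshold of 0.05, and the smallest adjusted p was 0.532. Over all loci 0.105% were lower and 0% higher. At an unadjusted p under 0.05, 1 member was lower (Hsd17b4) and 1 higher (Amacr), against 4.63% and 1.98% of all loci. The median log2 difference was 0.04 for the 16 enzymes and transporters (7 below 0, 9 above) and 0.04 for the 13 Pex genes (5 below, 8 above), against 0.03 over all loci. The enzyme median was -0.04 without centring and 0.14 without WT 4.

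The intervals bound the changes in centred called length of whole hearts that could have been missed. They do not bound changes in peak height or in cardiomyocytes alone. For 27 of the 29 members the 95% interval of the difference lay above a log2 of -1, the exceptions being Hsd17b4 and Pex19. The highest upper end was 0.74, at Pex11a. On the centred scale every edKO value was under every WT value at 1 member (Hsd17b4) and above them at 5 (Amacr, Scp2, Hacl1, Crot and Ehhadh), against 5.76% and 7.11% of all loci. Without centring, in base pairs, this held for Abcd3 (lower) and Amacr (higher) alone.

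**Figure D3:**
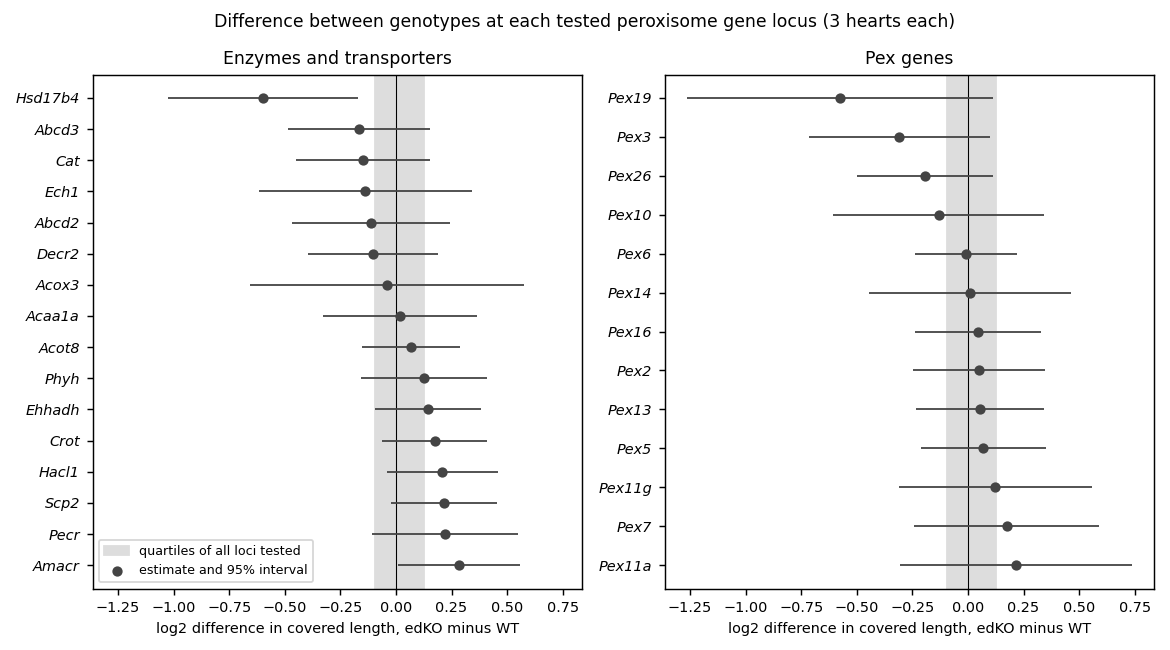
Log2 difference in called length, edKO minus WT, with its 95% interval (limma, 3 hearts each) at each tested locus. The grey band spans the quartiles of all loci tested (-0.10 to 0.13), and the intervals of Hsd17b4 and Amacr leave out 0 before adjustment.

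The pair of bifunctional enzymes, which carry out the middle steps of peroxisomal beta-oxidation, had estimates on opposite sides of 0, though the difference between them was not tested. Hsd17b4, the D-bifunctional protein (gene body chr18:50128201-50196270), had 3162, 2880 and 2014 bp called in WT against 2114, 1411 and 1287 bp in edKO. WT 4 was below edKO 1, and the other WT hearts stood above all edKO hearts; after centring the genotypes did not overlap. Its log2 difference was -0.60 (SE 0.18, interval -1.03 to -0.17), which did not pass (limma adjusted p = 0.532).

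Most of that difference lay in 1 region inside Hsd17b4 (chr18:50184212-50186299), called in all 6 hearts. It covered 1816, 1539 and 1012 bp across WT hearts and 801, 501 and 397 bp across edKO hearts (1456 ± 408 against 566 ± 210 bp, SD, n = 3). The genotypes did not overlap in uncentred base pairs. At the lower-coordinate end of the gene (chr18:50127735-50129236), the called length was 1346, 1341 and 1002 bp across WT hearts and 1313, 910 and 890 bp across edKO hearts, with overlap. With stricter lists the inner region was no longer called in every heart. The estimate for Hsd17b4 was below 0 in all 15 alternatives, from -0.81 at equal list length to -0.17 where only 5 kb around both gene ends was counted, which leaves the inner region out, and passed in none (limma adjusted p from 0.263 to 0.965).

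Ehhadh, the L-bifunctional protein (gene body chr16:21761285-21787834), had 2233, 2374 and 2070 bp across WT hearts and 2479, 2090 and 2416 bp across edKO hearts. The hearts of both genotypes were mixed in base pairs, and after centring all edKO hearts were higher. Its log2 difference was 0.14 (SE 0.10, interval -0.09 to 0.38, limma adjusted p = 0.857). Both of its regions, 1 at the start (chr16:21787176-21788348) and 1 lying 5606 bp beyond the start (chr16:21793441-21795165), were called in all 6 hearts. The farther region covered 1190 to 1635 bp across WT hearts and 1333 to 1659 bp across edKO hearts.

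Hadha encodes the subunit of the trifunctional protein that does the equivalent reactions in mitochondria, and its locus lay among the loci that fell (log2 difference -1.34, limma adjusted p = 0.0308). It had 8354, 8745 and 10333 bp across WT hearts and 3811, 2528 and 3583 bp across edKO hearts, far apart. Its window (gene body chr5:30119423-30154980) takes in the start of Hadhb (chr5:30155253-30184593), so this length is not that of Hadha alone. The Hadhb locus itself did not pass (log2 difference -0.97, limma adjusted p = 0.102). Hadha was picked as a comparison with its value known, and with WT 3 left out 0 loci passed, Hadha included. On the log2 scale, Hadha exceeded Ehhadh by 1.94 ± 0.24 in WT hearts and by 0.46 ± 0.18 in edKO hearts (SD, n = 3), and no edKO gap reached the smallest WT gap. Since Hadha was chosen for its fall, a smaller gap to a gene that did not pass follows from that choice and is given as a description. Against Hsd17b4 the gap was 1.71 ± 0.48 in WT and 0.97 ± 0.33 in edKO. The WT 1 gap to Hsd17b4 (1.35) and that of edKO 6 (1.35) nearly met.

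**Figure D4:**
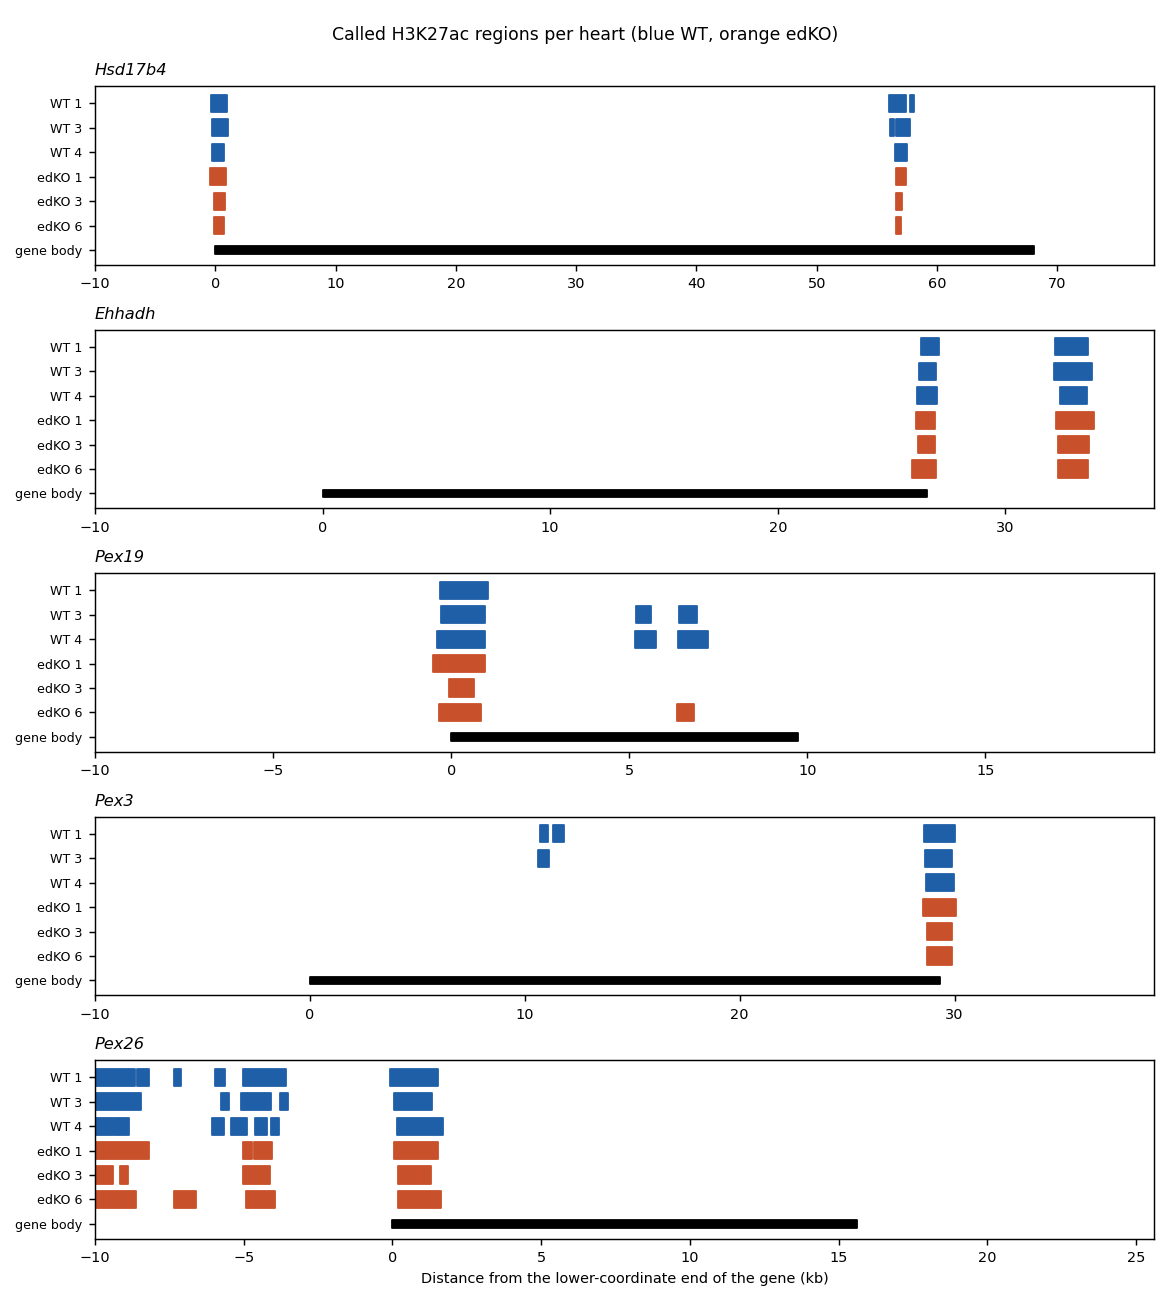
Called regions per heart (blue WT, orange edKO) at 5 members over the gene body and 10 kb beyond each end, with distance in kb from the lower-coordinate end of the gene and the gene body in black. The inner Hsd17b4 region is shorter in all edKO hearts, the Ehhadh regions overlap in length, and the small regions inside Pex19 and Pex3 are called in some hearts only.

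Other enzymes of chain shortening showed small estimates in both directions. Amacr, the racemase that prepares branched chains for oxidation (gene body chr15:10981756-10996624), had 1468, 1448 and 1522 bp across WT hearts and 1867, 1531 and 1794 bp across edKO hearts. All edKO hearts lay above all WT hearts, edKO 3 by only a few base pairs. Its log2 difference was 0.28 (SE 0.12, interval 0.01 to 0.56), the highest of the members, and did not pass (limma adjusted p = 0.739). Scp2, which encodes a thiolase for branched chains and a sterol carrier protein (gene body chr4:108043830-108144971), had 2071, 2078 and 1712 bp across WT hearts and 2386, 1730 and 2405 bp across edKO hearts. The edKO 3 heart sat with WT 4 and the others were higher in edKO, with a log2 difference of 0.22 (SE 0.10, limma adjusted p = 0.781).

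Acaa1a, the thiolase gene with a marked start, had 3564 ± 437 bp across WT hearts and 3403 ± 566 bp across edKO hearts, while its copy Acaa1b had 0 bp in every heart. The copies are near-identical, and reads that fit both could have been dropped or split, a point not given in the sources used here. Acox3, an oxidase of branched chains, spread widely within both genotypes (2422 to 4104 bp in WT, 1968 to 4487 bp in edKO), with 2 to 8 regions per heart. Its interval ran from -0.66 to 0.58, so a change of moderate size in either direction was not detectable.

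In alpha-oxidation, which removes a single carbon from branched chains, both genes were called in every heart. Hacl1, the lyase (gene body chr14:31607226-31640965), had 1512, 1574 and 1537 bp across WT hearts and 1892, 1458 and 1761 bp across edKO hearts. Here edKO 3 was the lowest of all hearts and the other edKO hearts were the highest, with a log2 difference of 0.21 (SE 0.11, limma adjusted p = 0.801). Phyh had 2407 to 2564 bp across WT hearts and 2459 to 2599 bp across edKO hearts (log2 difference 0.13).

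Entry and exit genes did not pass either. Crot, which turns shortened acyl chains into carnitine esters for mitochondria (gene body chr5:8966033-8997146), had 1643, 1770 and 1624 bp across WT hearts and 2042, 1522 and 1865 bp across edKO hearts. Again edKO 3 was lowest and the remaining edKO hearts highest, and the log2 difference was 0.18 (SE 0.10, limma adjusted p = 0.841). At Abcd3, a transporter of branched and dicarboxylic acyl-CoA, the single region at the start covered 2265, 2231 and 2023 bp across WT hearts and 1962, 1801 and 1624 bp across edKO hearts. All edKO hearts were lower in base pairs, but the centred log2 difference was -0.17 (SE 0.14, interval -0.48 to 0.15). Abcd2 had a second region, inside the gene, of 596 and 325 bp in WT 1 and WT 3, which was called in no other heart. Acot8 had 6874 ± 40.4 bp across WT hearts and 6845 ± 1066 bp across edKO hearts.

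Among the auxiliary enzymes, Ech1, a dienoyl-CoA isomerase also present in mitochondria, had all of its length at the start region in WT 1, edKO 1 and edKO 3. That region covered 2478, 2532 and 2618 bp across WT hearts and 2355, 1826 and 2120 bp across edKO hearts, with no overlap in uncentred base pairs. The whole locus overlapped, at 2478 to 3462 bp across WT hearts and 1826 to 3379 bp across edKO hearts (log2 difference -0.14, interval -0.62 to 0.34). Decr2, a dienoyl-CoA reductase, had a log2 difference of -0.10, and Pecr, a trans-enoyl-CoA reductase, of 0.22. Cat, which breaks down hydrogen peroxide, had 2118 to 2171 bp in WT. In edKO it had 2267, 1550 and 1634 bp, 1 heart above and the others below all WT hearts (log2 difference -0.15, SE 0.13).

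The 13 Pex genes had intervals that all included 0. Pex19, the cytosolic chaperone of peroxisomal membrane proteins (gene body chr1:172126755-172136497), had the lowest estimate, at -0.58 (SE 0.30, interval -1.26 to 0.11, limma adjusted p = 0.801). It had 1333, 2184 and 2801 bp across WT hearts and 1451, 704 and 1659 bp across edKO hearts. WT 1 lay among the edKO hearts. Its region at the lower-coordinate end was called in all hearts (1225 to 1357 bp in WT, 704 to 1451 bp in edKO), and the spread came largely from a pair of regions inside the gene. The first was called in WT 3 and WT 4 alone and the second in those hearts and in edKO 6.

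Pex3, the membrane anchor for Pex19 (gene body chr10:13523842-13553142), had 2304, 1763 and 1305 bp across WT hearts and 1532, 1158 and 1186 bp across edKO hearts. WT 4 lay among the edKO hearts, and the log2 difference was -0.31 (SE 0.18, limma adjusted p = 0.836). A region inside Pex3 was called in WT 1 and WT 3 (343 and 513 bp) and another in WT 1 (490 bp), and neither in edKO. With stricter lists, which hold neither, the Pex3 estimate was 0.02. Pex16, the other member of this assembly step, had a log2 difference of 0.04.

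Pex26, the membrane anchor of the export complex that recycles import receptors (gene body chr6:121183217-121198837), held the only region called in all hearts of 1 genotype and none of the other, which was lost with stricter lists and where peaks had to cover 50% of the joined region. It had 5411, 4416 and 4265 bp across WT hearts and 4193, 2880 and 4599 bp across edKO hearts, with edKO 6 among the WT hearts (log2 difference -0.19, SE 0.13, limma adjusted p = 0.856). The region at chr6:121177141-121177710, 5506 bp outside Pex26 and nearer to Mical3, covered 345, 273 and 411 bp in WT and was not called in edKO. Next to it, the region at chr6:121177785-121179706 covered 1447, 1300 and 1203 bp across WT hearts and 918, 920 and 993 bp across edKO hearts. The genotypes did not overlap there in uncentred base pairs, though with stricter lists this region was no longer called in every heart. The start region of Pex26 itself overlapped, at 1289 to 1598 bp across WT hearts and 1088 to 1474 bp across edKO hearts.

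The remaining Pex genes had overlapping hearts in base pairs, and none passed. Pex7 (gene body chr10:19860090-19907674) had 840, 923 and 797 bp across WT hearts and 1249, 717 and 854 bp across edKO hearts, where edKO 1 was the highest and edKO 3 the lowest of all hearts. Its log2 difference was 0.17 (SE 0.18, limma adjusted p = 0.879). Pex5, the main import receptor, had a log2 difference of 0.07. The docking genes Pex13 and Pex14 had 0.05 and 0.01, the latter with an interval of -0.45 to 0.46. Pex2 and Pex10, subunits of the RING ligase complex, had 0.05 and -0.13, and Pex6, an ATPase of receptor export, -0.01. In edKO 3, Pex10 had 775 bp, against 1490 to 1902 bp in the other 5 hearts, and without that heart its estimate was 0.11. The division genes Pex11a and Pex11g had 0.22 and 0.12, with intervals of -0.30 to 0.74 and -0.31 to 0.56.

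Counted by region, the members were near the background. Of 87 regions in the windows of the members, 1 (1.15%) was called in all WT and no edKO hearts, against 1.02% of 60739 regions near genes. None was called in all edKO and no WT hearts, against 0.0593%. Of the 49 regions called in all 6 hearts, the uncentred called length was lower in edKO without overlap at 4 (8.16%), against 5.8% of all such regions. These were the regions at Pex26, Hsd17b4, Abcd3 and Ech1 given above. It was higher at 1 (2.04%), Amacr, against 1.19%.

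Peroxisomal genes outside the 31 were given by a second list of 42, of which 34 were tested. Of these only Acot4 passed, lower in edKO (2.94% of the list, against 0.105% of all loci), and that was known when the list was drawn up. The list's median log2 difference was 0.02. At an unadjusted p under 0.05, 6 were lower (17.6%) and 3 higher (8.82%), against 4.63% and 1.98% of all loci. The list was drawn up with earlier results of these data known, so these shares are a description and not a result about peroxisomal genes. Acot4, a thioesterase of dicarboxylic acyl-CoA in a gene cluster with overlapping windows, had 2353 ± 158 bp in WT and was listed at 0 in each edKO heart (limma adjusted p = 0.0169, not passed with WT 3 left out). Ephx2, an epoxide hydrolase of peroxisomes and cytosol, had 3209, 2954 and 3763 bp across WT hearts and 817, 1213 and 948 bp across edKO hearts. The genotypes were far apart there, with a log2 difference of -1.48 (SE 0.24) that did not pass (limma adjusted p = 0.104). Dhrs4, a peroxisomal carbonyl reductase, had 3035, 3766 and 3356 bp across WT hearts and 1506, 1470 and 1968 bp across edKO hearts, also without overlap (log2 difference -0.88, SE 0.15, limma adjusted p = 0.114).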

How the data were processed

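H3K27ac ChIP-seq of 6 hearts was used, with 1 peak list per heart. No separate list was used for the 6 inputs. The submitters' processing notes list MACS2, SAMtools, BWA and cutadapt (no version stated) and the mouse builds mm10 and GRCm38. How peaks were called, and whether against the inputs, is not given in the sources used here. Deposited by the authors were narrowPeak files whose columns are the fold enrichment (a ratio to background), a whole-number score and the −log10 of the p-value and of the q-value of each entry, with coordinates and summit. No entry has a q-value above 0.05, and depth is unknown, so no counting interval is given.

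Entries were merged into regions. Called bp per protein-coding locus (body ± 10 kb, RefSeq GRCm38.p6) were taken as log2(bp + 200), and each heart's mean over the loci that every heart covers was subtracted. The 14313 loci averaging at least 500 bp were tested with limma 3.58.1 (R 4.3.3, trend, robust) on genotype alone, and p-values were adjusted over all of them by the Benjamini-Hochberg method. The code was checked on simulated data. Fold changes on this scale understate changes at small loci. Regions of the 6 lists were joined at 1 bp overlap.

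Members and lists were chosen with earlier results of these data known. By rule, values in every heart are given for the 5 enzymes and 4 Pex genes with the smallest unadjusted p, and for members with a genotype-restricted region. Ehhadh, Abcd3, Ech1, Cat, Acox3, Pex10 and others were described after their values were seen. The replicate numbers 1 and 3 occur in both genotypes but mark separate newborns. Other steps ran in Python 3.11.15 (scipy 1.17.1, pandas 2.3.3, numpy 2.4.6, matplotlib 3.10.9).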

Additional observations from a re-analysis of the deposited data

How the results depend on the processing

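No member tested passed the threshold in any of the 15 alternatives, of which some could not be run on every member for want of called length (smallest limma adjusted p 0.263, for Hsd17b4 with the replicate block), and 11 of the 29 tested members kept their sign in all of them. The count of lower loci over all genes, 15, was 9 with stricter lists (−log10 q of at least 5), 6 at equal list length, 9 when a region counted only toward the gene nearest to it and 90 with the replicate block. Without a single heart it ran from 0 (without WT 3) to 9. Leaving out WT 1 gave 2, WT 4 gave 1, edKO 1 gave 7 and edKO 3 gave 4. The count of higher loci, 0, was 3 with the nearest gene alone, and ran from 0 to 1 without a single heart. The replicate block leaves 1 residual degree of freedom. Deviations of same-numbered hearts correlated at 0.18 (number 1) and 0.03 (number 3). Different-numbered hearts were not compared, so these values do not settle whether the numbers mark pairs. The numbers mark separate newborns and were not taken as pairs. The median of enzymes and transporters was -0.043 without centring and ran from 0.016 to 0.14 without a single heart. The WT-restricted region at Pex26 was lost (0 regions) with stricter lists and where peaks had to cover 50% of the joined region. At equal list length Pex2 was -0.014, Pex13 -0.0097, Pex16 -0.019, Pex26 0.029 and Acaa1a -0.045. Without centring Pex2 was -0.036, Pex5 -0.017, Pex13 -0.032, Pex14 -0.076, Pex16 -0.041, Acaa1a -0.068 and Acot8 -0.017, the median of all loci moved from 0.03 to -0.05, and 19 in place of 12 members were below 0. With stricter lists Pex3 was 0.016 and Acaa1a -0.068. Over the gene body alone Pex6 was 0.15, Pex10 0.0297, Pex11a -0.025, Pex11g -0.0013, Pex13 -0.038, Acot8 -0.0082 and Decr2 0.11. Within 5 kb of both gene ends Pex6 was 0.00102, Pex14 -0.048, Abcd2 0.12 and Acot8 -0.0055, and with the nearest gene alone Pex6 was 0.043 and Decr2 0.044. With the replicate block Pex6 was 0.0059, Pex11g -0.12, Pex14 -0.19 and Cat 0.012. Without a single heart, Pex2 ran from -0.039 to 0.16, Pex6 from -0.0499 to 0.0295, Pex10 from -0.28 to 0.11, Pex11g from -0.042 to 0.25, Pex13 from -0.011 to 0.16, Pex14 from -0.16 to 0.24, Pex16 from -0.053 to 0.12, Acox3 from -0.28 to 0.14, Acaa1a from -0.092 to 0.14 and Ech1 from -0.32 to 0.037. The cause of these changes was not tested. Depth per heart is unknown, so a region missing from a list cannot be told apart from one too weak to be called there.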
